A study of Rattus norvegicus with 6 samples.

Results

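The pyruvate entry and pyruvate dehydrogenase (PDH) kinase genes were followed in rat myocardium after ischemia and reperfusion. They are 10 genes picked by symbol, all 10 of which were found among the 28293 genes of the deposited table, with 1 row each. They comprise the mitochondrial pyruvate carrier genes (Mpc1 and Mpc2), genes of the PDH complex (Pdha1, Pdhb and Dlat), the PDH kinase genes (Pdk1, Pdk2, Pdk3 and Pdk4) and a PDH phosphatase gene (Pdp2). Myocardial tissue of wild-type (WT) male rats was sequenced in 3 sham samples and in 3 samples of myocardial ischemia/reperfusion injury (MI/RI), which the labels call I/R. In the I/R group a ligature closed the left anterior descending artery for 30 min, and hearts were taken after 6 h of reperfusion. The titles of the sham samples carry these times too. Strain, age and the piece of heart taken were not given in the sources used here. The labels number the samples but do not say that each came from a separate animal, so the p-values below measure the spread between these samples, which may be technical.

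Pyruvate, the end product of glycolysis, crosses the inner mitochondrial membrane through a carrier built from MPC1 and MPC2. Inside, the PDH complex turns it into acetyl-CoA, the fuel of the tricarboxylic acid cycle, in a step that commits glucose carbon to oxidation. PDH kinases switch the complex off by phosphorylating its alpha subunit, and PDH phosphatases switch it on again. PDK4 is known in the heart as the kinase that rises with fasting and fatty acid use, under the control of peroxisome proliferator-activated receptors (PPARs), and PDK1 as a target of hypoxia-inducible factor 1.

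The values are FPKM, fragment counts scaled to gene length and library size, so they are relative within a library. The 13 mRNAs encoded by mitochondrial DNA took 80.1% to 86.2% of the summed FPKM in the sham samples and 61.8% to 71.5% in the I/R samples, and I/R replicate 1 had the lowest share. The sequencing depth, read from the steps between low values, ran from 0.873 to 1.18 relative to sham replicate 1. The 8 cardiomyocyte marker genes summed to between 3529 and 11533 FPKM in the sham group and to between 23749 and 34449 FPKM in the I/R group, none of them was at 0 in any library, and 7 of the 8 were called higher. None of the 7 endothelial markers was called in either direction, and their sums were 192 to 254 FPKM in sham and 211 to 249 FPKM in I/R. Of the other markers, 2 of 7 fibroblast genes (420 to 581 FPKM in sham, 605 to 669 FPKM in I/R) and 3 of 5 tested neutrophil and monocyte genes (51.5 to 67.2 and 78.5 to 144 FPKM) were called higher, and none of the 5 smooth muscle markers was called. Of the 5 adipocyte markers only 1 passed the filter, and of the 5 red blood cell markers 2 were in the table and tested, and these were not called. Smooth muscle markers summed to 66.0 to 267 FPKM in sham and 108 to 302 FPKM in I/R, and adipocyte markers, with Adipoq, Plin1, Lep and Cidec at 0 in at least 1 library, to 541 to 1329 and 255 to 569 FPKM. The part of these markers or of the mitochondrial share in the results below was not tested. In bulk tissue, more cells of a type and more RNA per cell cannot be told apart.

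Genes were called at an adjusted p under 0.05 from limma on log2(FPKM + 0.1), with Benjamini-Hochberg adjustment over the 10942 genes with a mean of at least 0.5 FPKM, a filter that all 10 genes passed. Of the 10 genes, 7 were higher in the I/R group and 0 lower by this rule, against 25.5% of all genes tested that were called higher and 7.36% called lower. No overlap between the groups was seen for 8 genes, all higher in I/R, against 37.2% of all genes tested that lay wholly higher and 13.0% that lay wholly lower. The median log2 fold change was 1.66 over the 10 genes and 0.29 over all genes tested. The 3 genes not called were Pdk3, Pdk4 and Pdp2. In a fit of only the 3784 genes with a mean of at least 5 FPKM, 1892 were called higher and 166 lower (median log2 fold change 0.66). The same 7 genes were called higher there, and Pdk3 and Pdp2 were not tested.

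**Figure D1:**
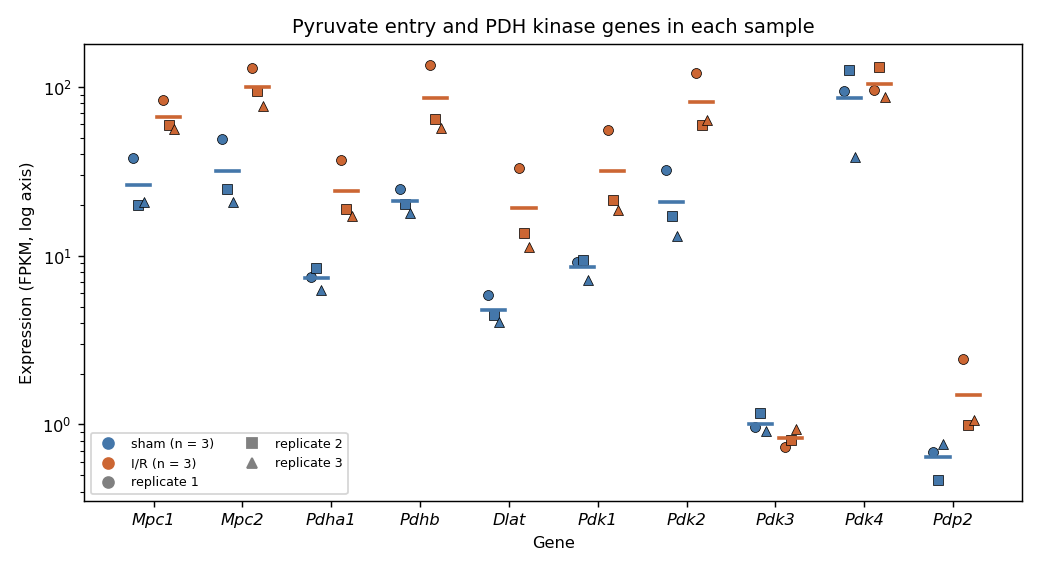
FPKM on a log axis for the 10 genes, with a point for each sample (shape marks the replicate number) and a bar for the mean of each group of 3. The I/R points lie above all sham points for 8 genes, while the groups overlap for Pdk3 and Pdk4, and I/R replicate 1 is the highest sample for 8 genes.

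Both subunits of the pyruvate carrier were higher after reperfusion. Mpc1 (ENSRNOG00000012415) was at 38.0, 20.0 and 20.7 FPKM in sham replicates 1 to 3 and at 83.8, 59.7 and 56.3 FPKM in I/R replicates 1 to 3. Replicate 1 was the highest of each group, and the lowest I/R sample lay above the highest sham sample. The log2 fold change of Mpc1, with its standard error (SE), was 1.38 (SE 0.30, adjusted p = 0.0092, limma). Mpc2 (ENSRNOG00000003150) was at 49.4, 25.0 and 20.9 FPKM in sham and at 129.2, 94.4 and 77.6 FPKM in I/R, again without overlap. Its log2 fold change was 1.73 (SE 0.35, adjusted p = 0.0068, limma). The carrier works as a heterodimer of these subunits, and the ratio of Mpc1 to Mpc2 FPKM in the same sample was 0.770 to 0.992 in sham and 0.632 to 0.726 in I/R. The ratio was lower in every I/R sample, by 0.35 on the log2 scale, with an exact permutation p of 0.1 (two-sided, the smallest that 3 against 3 allow).

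The core genes of the PDH complex moved together. Pdha1 (ENSRNOG00000025383) encodes the alpha subunit that the kinases phosphorylate, and was at 7.48, 8.45 and 6.30 FPKM in sham and 36.8, 18.8 and 17.2 FPKM in I/R. Every I/R sample lay above every sham sample, and I/R replicate 1 stood well above the other two. The log2 fold change of Pdha1 was 1.62 (SE 0.31, adjusted p = 0.0057, limma). Pdhb (ENSRNOG00000007895), the beta subunit of the same decarboxylase, was at 25.0, 20.1 and 18.0 FPKM in sham and 135.6, 65.0 and 57.4 FPKM in I/R. It had the second highest log2 fold change of the 10 genes, 1.93 (SE 0.33, adjusted p = 0.0043, limma). Dlat (ENSRNOG00000009994), the dihydrolipoamide acetyltransferase core of the complex, was at 5.82, 4.46 and 4.08 FPKM in sham and 32.9, 13.7 and 11.3 FPKM in I/R. Its groups did not overlap either, and its log2 fold change was 1.84 (SE 0.37, adjusted p = 0.0071, limma). Without I/R replicate 1 the log2 fold changes were 1.28 for Pdha1, 1.54 for Pdhb and 1.38 for Dlat, and all 3 were still called (adjusted p at most 0.011, limma). The ratio of Dlat to Pdhb FPKM stayed between 0.197 and 0.243 in all 6 samples, with a difference between the groups of −0.07 on the log2 scale (exact permutation test, p = 0.5). For Pdha1 to Pdhb the ratio was 0.299, 0.420 and 0.349 in sham and 0.2713, 0.2896 and 0.3003 in I/R, a difference of −0.30 on the log2 scale (exact permutation test, p = 0.2).

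The kinase genes did not move as a group, so the stretches of 200 bases before their transcription starts are shown here to set the promoters of the pair that rose, Pdk1 and Pdk2, beside those of the pair that was not called. The sequences are from RefSeq (GRCr8), 5′ to 3′ on the strand of the gene, and capitals mark the letters ACGTG, the core that hypoxia-inducible factors bind, and CCAAT, a common promoter box, on either strand, so that CACGTG and ATTGG are also in capitals.
Pdk1 (chr3:77113314-77113513, plus strand): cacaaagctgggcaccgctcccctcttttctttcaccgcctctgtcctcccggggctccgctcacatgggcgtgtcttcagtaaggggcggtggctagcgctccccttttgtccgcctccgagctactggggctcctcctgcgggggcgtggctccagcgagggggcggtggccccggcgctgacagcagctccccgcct
Pdk2 (chr10:80483913-80484112, minus strand): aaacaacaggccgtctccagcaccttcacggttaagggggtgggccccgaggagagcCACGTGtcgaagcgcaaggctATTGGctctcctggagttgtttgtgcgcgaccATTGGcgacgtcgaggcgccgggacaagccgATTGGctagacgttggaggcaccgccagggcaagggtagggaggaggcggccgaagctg
Pdk3 (chrX:62547372-62547571, minus strand): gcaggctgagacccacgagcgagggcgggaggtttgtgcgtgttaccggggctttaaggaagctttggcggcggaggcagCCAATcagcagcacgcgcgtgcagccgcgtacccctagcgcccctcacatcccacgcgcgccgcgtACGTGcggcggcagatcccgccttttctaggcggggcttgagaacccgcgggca
Pdk4 (chr4:34568330-34568529, minus strand): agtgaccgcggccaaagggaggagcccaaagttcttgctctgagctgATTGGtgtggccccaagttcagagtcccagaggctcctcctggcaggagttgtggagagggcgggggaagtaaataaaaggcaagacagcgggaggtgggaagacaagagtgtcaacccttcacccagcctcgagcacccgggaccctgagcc

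A promoter was found for 9 of the 10 genes, by symbol. Over the whole window of 250 bases before to 50 after the start, ACGTG was present in Dlat, Pdhb, Pdk1, Pdk2 and Pdk3, and in 19.3% of all 33469 rat promoters of the same length. In Pdk1 the letters occur only after the start, from positions 22 and 31, outside the stretch shown. CCAAT was present in Mpc1, Mpc2, Pdk2, Pdk3 and Pdk4 and in 37.5% of all promoters, with 3 matches in Pdk2 and 1 in Pdk4, the latter from position −153. The GC box GGGCGG was found in 7 of the 9 promoters and in 33.1% of all. The nuclear receptor half-site AGGTCA was found in Dlat and Pdhb and in 16.2% of all, and the PPAR response element (that half-site repeated after 1 base of any kind) in none of the 9 and in 0.0538% of all. These are matches of letters and describe the sequences only.

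Pdk1 and Pdk2 were called higher. Pdk2 (ENSRNOG00000004172), the kinase found in most tissues, was at 32.3, 17.2 and 13.2 FPKM in sham and 121.0, 59.9 and 64.1 FPKM in I/R, and its log2 fold change of 1.99 was the highest of the 10 genes (SE 0.38, adjusted p = 0.0058, limma). Only 3.62% of all genes tested had a higher log2 fold change. Pdk1 (ENSRNOG00000001517) was at 9.21, 9.44 and 7.20 FPKM in sham and 55.8, 21.4 and 18.6 FPKM in I/R. The sham samples lay close together (SD 1.23 FPKM), whereas the I/R samples spread widely (SD 20.7 FPKM) because replicate 1 lay far above the others. The log2 fold change of Pdk1 was 1.70 (SE 0.38, adjusted p = 0.010, limma), and without I/R replicate 1 it was 1.21 (adjusted p = 0.013, limma).

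Pdk4 and Pdk3 were not called. Pdk4 (ENSRNOG00000009565) was at 95.2, 126.4 and 38.4 FPKM in sham and 96.4, 131.0 and 87.5 FPKM in I/R. Replicates 1 and 2 were at nearly the same level in both groups, and sham replicate 3 alone lay low. The log2 fold change of Pdk4 was 0.42 with a 95% interval of −0.49 to 1.33 (adjusted p = 0.45, limma), so that a rise of up to 1.33 or a fall of 0.49 on the log2 scale is within its error. Without sham replicate 3 its log2 fold change was −0.085 (adjusted p = 0.87, limma). Pdk3 (ENSRNOG00000012513), a kinase of low level in this tissue, was at 0.959, 1.16 and 0.911 FPKM in sham and 0.733, 0.805 and 0.939 FPKM in I/R. The groups overlapped through I/R replicate 3, and the log2 fold change of Pdk3 was −0.26 with a 95% interval of −0.87 to 0.34 (adjusted p = 0.48, limma). The FPKM of Pdk3 stood for 34 to 73 fragments in a library, whereas those of Pdk4 stood for 6468 to 22149.

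The phosphatase gene Pdp2 (ENSRNOG00000012343), whose product removes the phosphates that the kinases add, was at 0.685, 0.468 and 0.763 FPKM in sham and 2.43, 0.997 and 1.06 FPKM in I/R, from 134 to 514 fragments. All I/R samples lay above all sham samples, and replicate 1 was well above the rest. The log2 fold change of Pdp2 was 1.02 (SE 0.37), with an adjusted p of 0.060 (limma), which missed the threshold. With the replicate number as a block the adjusted p was 0.041 (limma). The block pairs same-numbered samples, which the labels do not state, by a rule read from these same data. Leaving out I/R replicate 1 gave 0.63 on the log2 scale (adjusted p = 0.18, limma).

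**Figure D2:**
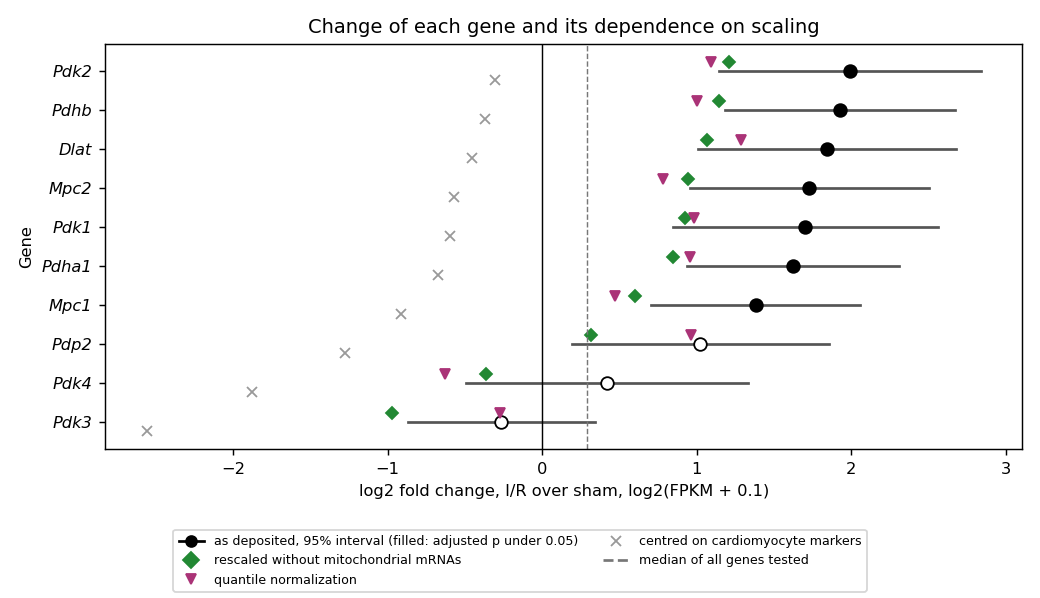
Log2 fold change of each gene (I/R over sham, on the log2(FPKM + 0.1) scale) with its 95% interval from limma, filled where the adjusted p was under 0.05, and the same value under 3 other scalings. The 7 called genes lie between 1.38 and 1.99 as deposited, Pdp2, Pdk4 and Pdk3 lie lower, and all 10 lie under 0 once centred on the cardiomyocyte markers.

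The direction of these changes was relative to the scale of the libraries. When each sample was rescaled over the genes not encoded by mitochondrial DNA, 6 of the 10 genes were called higher and 0 lower. This stood against 793 and 2857 of all 10942 genes tested, whose median log2 fold change was −0.46. Under that scaling the log2 fold changes of the called genes were 0.84 (Pdha1) to 1.21 (Pdk2), Mpc1 was at 0.60 and no longer called (adjusted p = 0.073, limma), Pdk4 was at −0.37 and Pdk3 at −0.97 (adjusted p = 0.057, limma). Quantile normalization left 5 of the 10 called higher, against 1441 of all 10942 genes tested. Mpc1 at 0.47 (adjusted p = 0.15) and Mpc2 at 0.78 (adjusted p = 0.055, both limma) missed the threshold. Centred on the mean of the 8 cardiomyocyte markers, which takes 2.30 from every log2 fold change, none was called higher. Pdk4 (−1.88) and Pdk3 (−2.56) were called lower (adjusted p = 7.8e-05 and 0.0013, limma). By the same fit 9031 of all 10942 genes tested were called lower and 35 higher. The p-values of that fit may be too small, because the error of each marker mean is shared by all genes of the sample. The order of the genes was similar, with Pdk2 at the top and Pdk3 and Pdk4 at the bottom under each of these scalings except quantile normalization, where Dlat was highest.

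The make-up of the kinase mRNA, in which a scaling factor common to a library cancels, is given here as a description with no test. FPKM is per length, so levels of different kinases can be summed. Pdk4 made up 69.1%, 82.0% and 64.3% of the summed FPKM of the 4 kinases in sham and 35.2%, 61.5% and 51.1% in I/R. The share of Pdk4 was lower in each I/R sample than in any sham sample, with means of 71.8% ± 9.12 (SD, n = 3) and 49.3% ± 13.2 (SD, n = 3). The share of Pdk2 was 23.5%, 11.2% and 22.1% in sham and 44.2%, 28.1% and 37.5% in I/R, also without overlap. Pdk1 made up 6.69%, 6.12% and 12.1% in sham and 20.4%, 10.03% and 10.8% in I/R, with overlap, and Pdk3 at most 1.53% in any sample. In I/R replicate 1, Pdk2 exceeded Pdk4, which was the leading kinase in the other 5 samples.

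**Figure D3:**
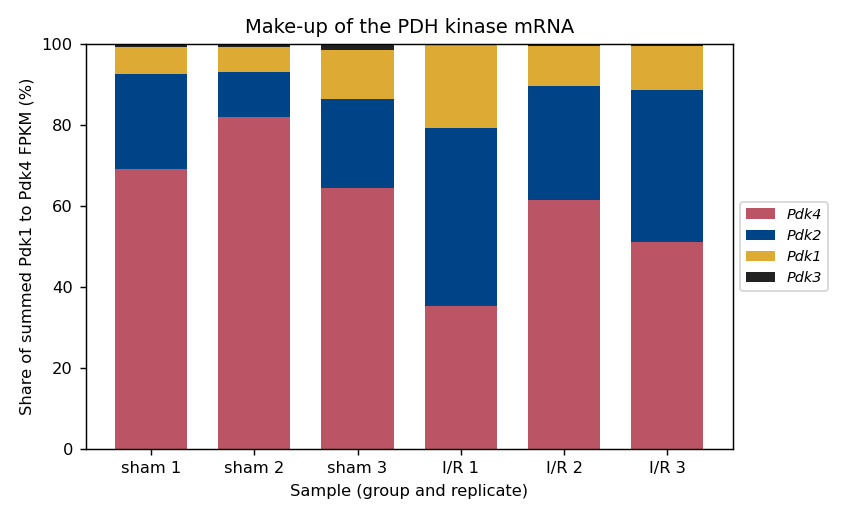
Share of each kinase in the summed FPKM of Pdk1 to Pdk4 for each of the 6 samples, stacked to 100%. The Pdk4 part ranges from 64.3% to 82.0% in sham and from 35.2% to 61.5% in I/R, and the Pdk2 part is larger in each I/R sample than in any sham sample.

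Ratios between genes of the same sample were compared for 8 pairs by exact permutation of the samples (two-sided, smallest possible p = 0.1), and Benjamini-Hochberg adjusted p over the 8 was at least 0.27. The ratio of Pdk4 to Pdk2 was 2.95, 7.34 and 2.91 in sham and 0.797, 2.19 and 1.36 in I/R. It was lower in 3 of 3 I/R samples than in any sham sample, by a factor of 2.98 (exact permutation test, p = 0.1). The ratio of Pdk3 to Pdk2 was also lower in 3 of 3 I/R samples, by a factor of 4.88 (exact permutation test, p = 0.1). Pdk1 to Pdk2 overlapped between the groups, with a difference of −0.28 on the log2 scale (exact permutation test, p = 0.6). Set against the subunit that the kinases act on, Pdk4 was at 12.7, 15.0 and 6.10 times the FPKM of Pdha1 in sham and at 2.62, 6.96 and 5.08 times in I/R. These overlapped only through sham replicate 3 and I/R replicate 2 (exact permutation test, p = 0.2). The phosphatase to substrate ratio, Pdp2 to Pdha1, was 0.0916, 0.0554 and 0.121 in sham and 0.0661, 0.0530 and 0.0617 in I/R (exact permutation test, p = 0.3). Summed over all 4 kinases, the FPKM per unit of Pdha1, Pdhb and Dlat together was 3.45 ± 1.29 (SD, n = 3) in sham and 1.84 ± 0.446 (SD, n = 3) in I/R, a description with no test.

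**Figure D4:**
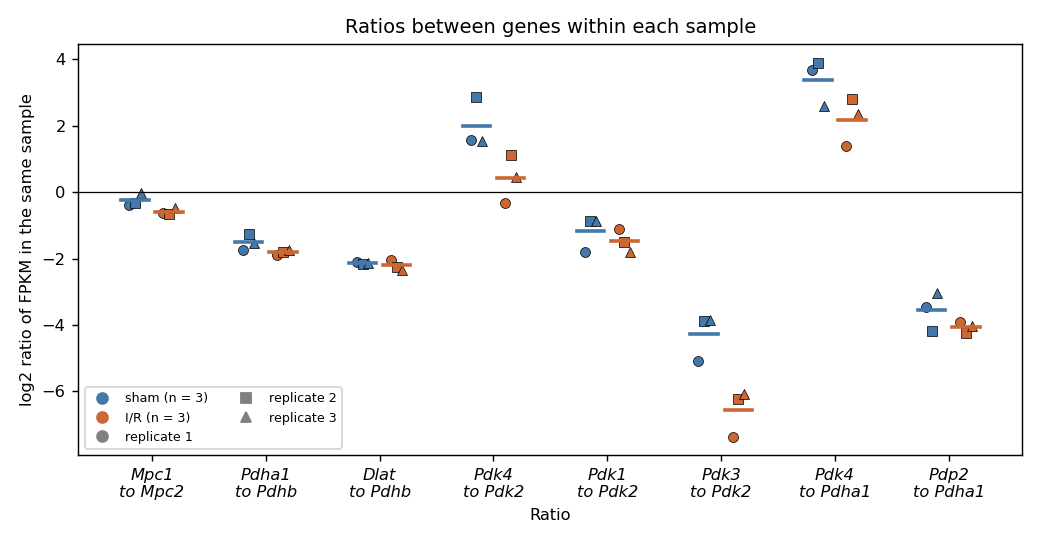
Log2 ratio of the FPKM of paired genes in the same sample, with a point for each sample and a bar for each group mean. Mpc1 to Mpc2, Pdk4 to Pdk2 and Pdk3 to Pdk2 are lower in all 3 I/R samples than in any sham sample, and the other 5 ratios overlap.

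In order of level per length, Pdk4 led in sham at 86.7 ± 44.6 FPKM (SD, n = 3), followed by Mpc2, Mpc1, Pdhb and Pdk2, and the ranges of each neighbouring pair among these 5 overlapped. Pdk1 (8.62 ± 1.23 FPKM) and Pdha1 (7.41 ± 1.08 FPKM; SD, n = 3 each) came next with overlapping ranges, then Dlat, Pdk3 and Pdp2, each wholly below the one before. In I/R, Pdk4 at 104.9 ± 23.0 FPKM and Mpc2 at 100.4 ± 26.3 FPKM (SD, n = 3 each) lay close together, and Pdk4 was the higher in 2 of 3 samples, compared with 3 of 3 in sham. Pdhb moved up to the third place and Pdk2 to the fourth, above Mpc1, although all these neighbours overlapped. At the bottom, Pdp2 and Pdk3 changed places, with Pdp2 above Pdk3 in 3 of 3 I/R samples and Pdk3 above Pdp2 in 3 of 3 sham samples.

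The rest of the PDH pathway was read from a list of 13 genes, of which 10 were in the table and 9 passed the filter. Of these 9, 4 were higher and 0 lower (median log2 fold change 0.84), against 25.5% and 7.36% of all genes tested. When rescaled over genes not encoded by mitochondrial DNA, 2 were higher, against 793 of all 10942 genes tested. Centred on the cardiomyocyte markers, 0 were higher and 6 lower, against 35 and 9031 of all 10942. Pdhx, which tethers the dihydrolipoamide dehydrogenase to the core, was at 3.85, 2.71 and 2.04 FPKM in sham and 24.9, 8.94 and 8.61 FPKM in I/R, with a log2 fold change of 2.12 (SE 0.41, adjusted p = 0.0059, limma). Lias, the lipoyl synthase that makes the cofactor arm of Dlat, rose by 1.78 and Pc, the pyruvate carboxylase that takes pyruvate to oxaloacetate, by 1.41 on the log2 scale (adjusted p = 0.0075 and 0.010, limma). Pdp1, the other catalytic phosphatase, was at 2.11, 2.27 and 2.65 FPKM in sham and 5.16, 3.99 and 3.70 FPKM in I/R, a log2 fold change of 0.84 (SE 0.23, adjusted p = 0.020, limma). Dld, the dihydrolipoamide dehydrogenase, had a log2 fold change of 0.93 that missed the threshold (adjusted p = 0.056, and 0.015 with the replicate block, limma) although its groups did not overlap. The phosphatase regulator Pdpr (0.74) and the lipoyl transfer gene Lipt2 (−0.04) were not called (adjusted p at least 0.20, limma). Lipt1, at 0.0679 to 0.283 FPKM, was below the filter.

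Genes that control the kinases or share their control were read from further lists. Of 11 tested regulators, 3 were higher and 0 lower, a share near the 25.5% of all genes tested that were called higher. Centred on the cardiomyocyte markers, 1 was higher and 7 lower, against 35 and 9031 of all 10942 genes tested. With the replicate block 4 were higher, against 3085 of all 10942 genes tested. The block added Foxo3, a forkhead factor gene (log2 fold change 0.90, adjusted p = 0.047, against 0.057 without the block, limma). Nr4a1, a nuclear receptor of the immediate early response, rose by 3.86 on the log2 scale (SE 0.57, adjusted p = 0.0031, limma), and Ppard, the PPAR delta gene, rose from 5.23 ± 2.10 to 14.9 ± 2.54 FPKM (SD, n = 3 each), a log2 fold change of 1.57 (adjusted p = 0.0079, limma). Ppargc1a, the coactivator of mitochondrial biogenesis, was the third, at 1.84 (adjusted p = 0.0032, limma). Ppara and Hif1a, named here after their values were seen, had log2 fold changes of 0.04 (adjusted p = 0.95) and 0.67 (adjusted p = 0.059, both limma). Of 16 tested targets of PPAR alpha, 9 were higher and 1 lower (median 1.40), against 25.5% and 7.36% of all genes tested. After rescaling over genes not encoded by mitochondrial DNA, 5 were higher and 4 lower, against 793 and 2857 of all 10942 genes tested. Quantile normalization gave 4 and 2, against 1441 and 1559, and centring on the cardiomyocyte markers gave 0 and 7, against 35 and 9031. The counts were 5 and 2 without sham replicate 3, against 1528 and 359 of all 10942 genes tested. They were 9 and 2 without sham replicate 1 (2557 and 881), and 6 and 1 without sham replicate 2 (1919 and 309). Fabp3, the fatty acid binding protein of heart muscle, led with 2.67 (adjusted p = 0.0031, limma), and Acadl, a long-chain acyl-CoA dehydrogenase, was at 1.69 (adjusted p = 0.0077, limma). With the replicate block 11 were higher and 2 lower, against 3085 and 895 of all 10942 genes tested. It added Cpt1b, the muscle form of the carnitine palmitoyltransferase that admits fatty acids to mitochondria (adjusted p = 0.0070, against 0.053 without the block, limma), and Hadhb, a subunit of the trifunctional protein of fatty acid oxidation (0.032 against 0.063), as higher. Ucp3, an uncoupling protein gene, was added as lower (log2 fold change −1.10, adjusted p = 0.042 against 0.16, limma).

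Among 10 tested targets of hypoxia-inducible factor 1, 5 were higher and 0 lower (median 0.79), against 25.5% and 7.36% of all genes tested. The counts were 4 and 3 after that rescaling (793 and 2857 of all 10942 genes tested) or quantile normalization (1441 and 1559). Centred on the cardiomyocyte markers, 0 were higher and 5 lower, against 35 and 9031 of all 10942. Without sham replicate 3 the counts were 5 and 1, against 1528 and 359 of all 10942. Hk2, a hexokinase that starts glycolysis, rose by 2.58 from values of 0.122 to 0.305 FPKM in sham, and Ldha, which turns pyruvate into lactate, rose by 2.19 from 36.3 ± 6.17 to 172.3 ± 68.5 FPKM (SD, n = 3 each; adjusted p = 0.0027 and 0.0026, limma). Egln1, an oxygen sensor, had the smallest called change at 1.27 (adjusted p = 0.011, limma), and Vegfa, the vascular growth factor, was not called (−0.46, adjusted p = 0.30, limma). Downstream of the PDH complex, all 15 tricarboxylic acid cycle genes were higher (median 1.94), against 25.5% of all genes tested. The count was 15 after that rescaling (793 of all 10942 genes tested), 10 with quantile normalization (1441) and 0 when centred on the markers (35). It was 15 with a filter at a mean of 5 FPKM, against 1892 of the 3784 genes tested. The smallest log2 fold change was 1.70 for Cs, the citrate synthase that receives acetyl-CoA (adjusted p = 0.0075, limma). The largest was 2.48 for Mdh2, the malate dehydrogenase (adjusted p = 0.0042, limma). Sdhb, a succinate dehydrogenase subunit, was at 1.79 (adjusted p = 0.0089, limma).

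The genes most like each kinase were taken by Pearson correlation of log2(FPKM + 0.1) over the 6 samples among 9112 genes with a mean of at least 1 FPKM. The 6 points share the group difference and the library scale, so r is a description only. Pdk2 ran most closely with Ckm, the muscle creatine kinase (r = 0.999), Idh2 and Opa3. Pdk1 ran with Mief2, Usp5 and Etfdh, which passes electrons from fatty acid oxidation to ubiquinone (r = 0.999 for each). For Pdk4 the nearest genes were Ifitm10 (r = 0.992), Tead3 (r = 0.963) and ENSRNOG00000070027 (r = 0.961), and for Pdk3 Clcn7 (r = 0.991), Ccdc130 (r = 0.990) and Zfp653 (r = 0.989). Ifitm10 repeated the low sham replicate 3 of Pdk4, at 3.54, 4.78 and 1.54 FPKM in sham and 3.32, 4.90 and 3.56 FPKM in I/R.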

How the data were processed

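RNA of 3 sham and 3 I/R samples of rat myocardium was measured. The labels state that a stranded total RNA kit was used. The authors deposited FPKM values per gene and sample, already scaled to gene length and library size, and the submitters' processing notes name STAR and HTSeq. Versions, genome build and annotation are not given in the sources used here. Rows sharing a symbol were summed. Log2(FPKM + 0.1) was tested, for genes averaging 0.5 FPKM or more, with limma 3.58.1 in R 4.3.3 (intensity trend, Benjamini-Hochberg, threshold 0.05), and the fit was tested on simulated data. Ratios were tested by exact permutation of the samples (two-sided). Relative depth was the most common ratio of low values (mean under 0.3 FPKM) between samples. The fragments behind each of the 10 genes are the smallest whole numbers, to within 0.02, in the ratio of its depth-corrected values, and no count model was run on them. Deviations from the group means correlated across genes at 0.203, 0.117 and 0.118 between same-numbered samples, and at −0.185 to 0.120 between samples of different number, the highest being sham replicate 3 with I/R replicate 2. By a rule of every same-numbered pair above 0.1 the number was taken to pair samples, which the labels do not state, and a fit with it as a block was made beside the unblocked one. The 10 genes and the lists were chosen with earlier results of these data known. Named genes were the 10, the rest of the PDH pathway, and of each other list the called genes with the highest and lowest log2 fold change and the 2 of highest mean FPKM, and the 3 genes most correlated with each kinase. Alternatives were other pseudocounts and filters, other scalings, no trend, the block, the highest row of a symbol and leaving out each sample. Some genes that this rule names are not reported here.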

Additional observations from a re-analysis of the deposited data

How the results depend on the processing

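The count of 7 genes higher and 0 lower among the 10 stayed within 1.5 times under 17 of 18 alternatives, between 5 (quantile normalization) and 8 (TPM, replicate block). Over all 10942 genes tested, 1441 were higher with quantile normalization, 3449 with TPM and 3085 with the block. Centred on the cardiomyocyte markers the count among the 10 was 0 higher and 2 lower, against 35 and 9031 of all 10942 genes tested. The log2 fold changes reversed for Pdk1 (−0.59), Pdk2 (−0.31), Pdk4 (−1.88), Pdha1 (−0.67), Pdhb (−0.37), Dlat (−0.45), Pdp2 (−1.27), Mpc1 (−0.91) and Mpc2 (−0.57), which follows from the 2.30 that this centring takes from every gene. Pdk4 was also below 0 with quantile normalization (−0.63), with rescaling over genes not encoded by mitochondrial DNA (−0.37) and without sham replicate 3 (−0.085), its range over single samples left out being −0.085 to 0.77. The cause was not tested. Pdp2 was called with TPM (adjusted p = 0.037, limma) and with the replicate block (adjusted p = 0.041, limma), and the block changed no other call among the 10.

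Of the rest of the PDH pathway, 4 of 9 tested genes were higher and 0 lower, against 25.5% and 7.36% of all genes tested. After the rescaling over genes not encoded by mitochondrial DNA 2 were higher, against 793 of all 10942 genes tested. After centring on the cardiomyocyte markers 0 were higher and 6 lower, against 35 and 9031. With the replicate block 5 were higher, as Dld was added, against 3085 of all 10942 genes tested.

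Over all genes 2790 were higher and 805 lower. The counts were 1441 and 1559 with quantile normalization, 793 and 2857 with the rescaling over other genes, and 35 and 9031 with the centring on markers. A filter at a mean FPKM of 5 left 3784 genes tested, of which 1892 were higher and 166 lower (median log2 fold change 0.66). TPM gave 504 lower and centring on the median 1554. Of the calls, 77.6% were higher as deposited, 87.3% with TPM, 56.5% centred on the median and 48.0% with quantile normalization. With each sample left out, 1528 (without sham replicate 3) to 2557 were higher and 309 (without sham replicate 2) to 881 lower, with 359 lower without sham replicate 3. With the replicate block 3085 were higher and 895 lower. The 8 ratios and 4 kinase shares kept their direction under each of their 8 alternatives. Depth limits Pdk3 most, at 34 to 73 fragments a library.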
